A study of Mus musculus with 12 samples.

Results

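The 10 genes described here encode guanylate-binding proteins (Gbp2, Gbp3, Gbp4, Gbp5, Gbp6 and Gbp7) and immunity-related GTPases (Irgm1, Igtp, Iigp1 and Tgtp1). They were chosen by name as GTPase genes that interferon-gamma induces, and all 10 were found by symbol among the 55421 genes of the count table. All 10 were also among the 15999 genes with enough counts to be tested. RNA was sequenced from cells sorted as bone marrow endothelial cells (TER-119-, CD41-, CD45-, CD31 high and SCA-1+) from mice labelled as 20 weeks old, with 1 library from each of 3 animals in each of 4 groups. Controls were naive C57BL/6J mice. Hypertension was produced in C57BL/6J mice by angiotensin II from implanted minipumps, which the study's methods describe as an infusion of 8 weeks. Mice labelled as 2 days after acute myocardial infarction (MI) were C57BL/6J with a permanently ligated coronary artery, although the text of the study gives day 4 for such cells. Atherosclerotic mice carried the Apoe(tm1Unc) knockout allele, which no other group carried, and the study's methods give them a high-fat western diet for 10 weeks, so genotype, diet and disease cannot be told apart in this group.

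Guanylate-binding proteins are large GTPases that assemble on the membranes of vacuoles holding bacteria or parasites, and on the bacteria themselves, where they help to break them open and to trigger inflammasomes. Immunity-related GTPases come in a regulatory class, to which Irgm1 and Igtp belong and which protects the cell's own membranes, and an effector class, to which Iigp1 and Tgtp1 belong and which coats pathogen vacuoles. Interferon-gamma turns these genes on through the GAS element and through IRF1. Type I interferons use the ISRE element, and many genes of the family answer to both kinds of interferon.

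The family sits in clusters of neighbouring copies, and positions are given on GRCm38 from the GENCODE M21 annotation. Gbp5 (chr3:142493978-142522344), Gbp7 (chr3:142530342-142550149), Gbp3 (chr3:142560026-142573209) and Gbp2 (chr3:142620602-142638008) lie on the plus strand of chromosome 3. Gbp4 (chr5:105115767-105139586) and Gbp6 (chr5:105270702-105293698) lie on the minus strand of chromosome 5. Tgtp1 (chr11:48985327-48994172, minus strand), Irgm1 (chr11:48861968-48871683, minus strand) and Igtp (chr11:58199556-58207591, plus strand) lie on chromosome 11. Iigp1 lies apart from these clusters, and its position is given with its values.

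RefSeq promoter windows, which run from 250 bases before to 50 bases after a transcript start on GRCm38.p6, were at hand for 7 of the 10 genes (Gbp2, Gbp3, Gbp5, Gbp7, Irgm1, Igtp and Tgtp1). An ISRE core (GAAA repeated after a spacer of any 2 bases, on either strand) was found in a window of each of these 7 genes, against 3.44% of all 32851 windows. The GAS motif (TTCNNNGAA, which reads the same on both strands) was found in 4 of the 7 genes (Gbp5, Gbp7, Igtp and Tgtp1), against 8.3% of all windows. No ISRE core overlapped a GAS match in them. The stretches of 120 bases that end just before the start are printed for the 6 genes that hold an ISRE core there, because each of them holds this motif close to the start, with the bases of both motifs in capitals.
Gbp2, chr3:142620543-142620662 (plus strand): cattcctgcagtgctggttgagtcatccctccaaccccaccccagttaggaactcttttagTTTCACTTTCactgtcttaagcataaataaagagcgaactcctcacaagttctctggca
Gbp3, chr3:142559924-142560043 (plus strand): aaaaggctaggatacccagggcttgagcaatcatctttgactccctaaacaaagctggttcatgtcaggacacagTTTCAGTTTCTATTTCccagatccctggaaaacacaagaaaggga
Gbp7, chr3:142530216-142530335 (plus strand): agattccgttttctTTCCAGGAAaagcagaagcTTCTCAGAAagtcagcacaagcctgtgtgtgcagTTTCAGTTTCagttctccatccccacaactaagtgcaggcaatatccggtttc
Irgm1, chr11:48871421-48871540 (minus strand): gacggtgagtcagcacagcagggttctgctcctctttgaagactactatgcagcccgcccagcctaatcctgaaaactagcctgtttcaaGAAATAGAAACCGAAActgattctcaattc
Igtp, chr11:58199436-58199555 (plus strand): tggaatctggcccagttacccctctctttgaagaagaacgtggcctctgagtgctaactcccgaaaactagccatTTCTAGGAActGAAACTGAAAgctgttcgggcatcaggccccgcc
Tgtp1, chr11:48992247-48992366 (minus strand): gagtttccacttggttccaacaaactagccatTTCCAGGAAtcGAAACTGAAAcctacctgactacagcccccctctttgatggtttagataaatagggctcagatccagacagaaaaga
The first base of the ISRE core lay 59 bases before the start in Gbp2, 53 in Gbp7, 34 in Igtp and 77 in Tgtp1. Gbp3 and Irgm1 each held a pair of overlapping cores, which began 45 and 39 bases before the start in Gbp3 and 30 and 24 in Irgm1. In Igtp and Tgtp1 a GAS match stood directly 5′ of the ISRE core, beginning 45 and 88 bases before the start. Gbp5 held its ISRE core farther out, 165 bases before the start. Another RefSeq start of Gbp3 had neither motif in its window.

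Reads that fit more than 1 gene are not counted by the counter that was used, so genes with near-identical copies were measured through part of their length. For Tgtp1 only 18.8% of the 50-base stretches of its transcripts occurred in no other gene, and 79.4% were shared with its neighbour Tgtp2. For Gbp6 the unique share was 29.4%, and 65% of its stretches were shared with Gm43302, a gene model on the same strand that overlaps it and Gbp10. The other 8 genes had unique shares between 87.3% for Gbp7 and 99.6% for Irgm1. The values of Tgtp1 and Gbp6 are therefore uncertain, and they also rest on few reads (4 to 45 counts per library for Tgtp1 and 1 to 35 for Gbp6).

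Libraries held between 17007088 and 25136936 counts. A level of 3 counts, taken as the smallest measurable amount, corresponded to 0.116 to 0.176 CPM, the unit of level used below, which is a count scaled to the total of its library after a correction for RNA composition (TMM). Apoe was between 450 and 1503 CPM in the 9 wild-type libraries and between 7.28 and 14.8 in the 3 Apoe knockout libraries, as their labels state. The defining endothelial gene Cdh5 was detected in every library, and the 15 endothelial markers summed to 134.8 to 272.5 CPM, whereas 10 genes of the neutrophil lineage summed to 33330 to 96591 CPM in the same libraries. The values below therefore describe the sorted material as a whole. In such bulk libraries a change in RNA per cell and a change in the share of cells that express a gene cannot be told apart.

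In the control libraries the family spanned a wide range of levels. Per kilobase of exon, Igtp was highest at 18.4 ± 3.55 CPM (SD, n = 3), followed by Irgm1 at 10.5 ± 0.625 and Gbp7 at 9.25 ± 0.114. The next pair, Gbp3 at 4.38 ± 0.466 and Gbp2 at 4.35 ± 0.317 CPM per kilobase, did not differ beyond their spread. Iigp1 followed at 1.5 ± 0.538 and Gbp4 at 0.758 ± 0.0483 CPM per kilobase. Tgtp1 (0.377 ± 0.136) and Gbp5 (0.321 ± 0.113) again overlapped, and Gbp6 came last at 0.0538 ± 0.0215 CPM per kilobase. The whole exon length was used for every gene. The values of Tgtp1 and Gbp6, which have few unique stretches, may therefore be too low and their places are uncertain. Of the other 19 GBP and immunity-related GTPase genes examined, Ifi47, an interferon-inducible member of the immunity-related class, was above all 10 at 30.2 ± 5.19 CPM per kilobase.

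**Figure D1:**
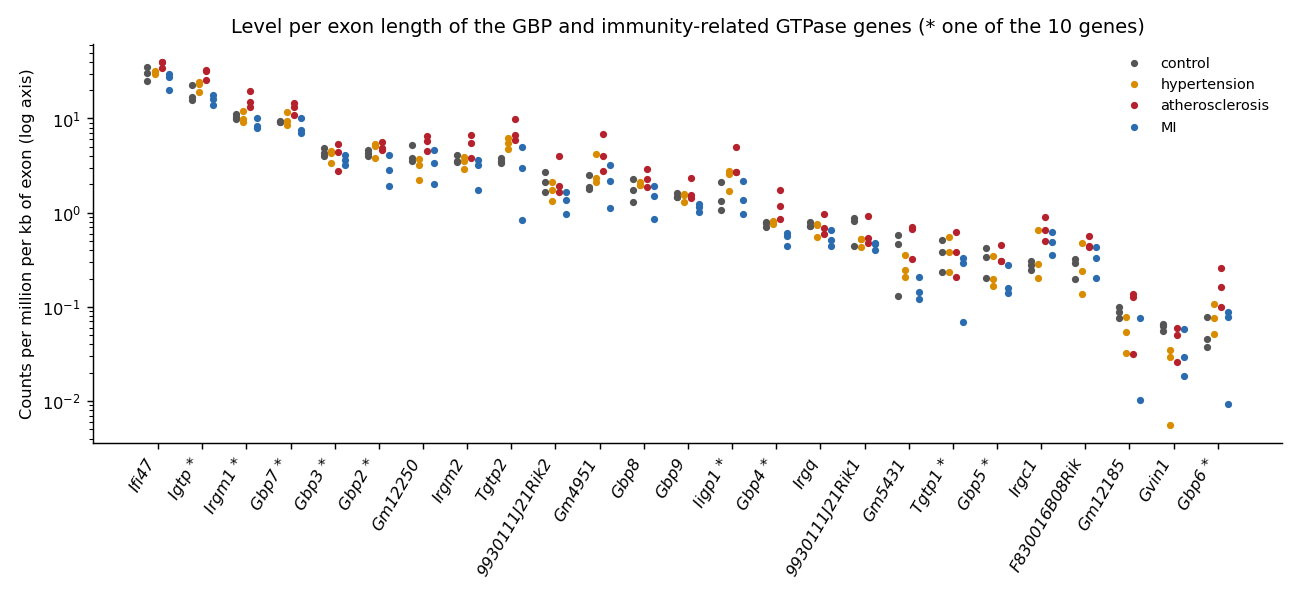
Level per kilobase of exon, on a log axis, of the 25 GBP and immunity-related GTPase genes that were tested, ordered by their mean in the control libraries; points are single libraries and a library without counts is not drawn. An asterisk marks the 10 genes, which run from Igtp at 18.4 to Gbp6 at 0.0538 CPM per kilobase in controls. The whole exon length was used, which can understate Tgtp1 and Gbp6.

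The comparisons of each disease with controls ask whether a cardiovascular disease changed the RNA of the sorted cells. In atherosclerosis 9 of the 10 genes had a higher mean level than in controls. The median of their log2 fold changes was 0.53, where the median over all genes tested was 0.01. No gene of the family passed an adjusted p of 0.05 in edgeR's quasi-likelihood test across all genes, a rule that called 0.144% of all genes, and the smallest adjusted p was 0.29, for Igtp. The likelihood-ratio test, which calls more genes (0.388% called as higher), also called none of the 10. Without adjustment, 6 of the 10 had p under 0.05 and were higher (Gbp4, Gbp6, Gbp7, Irgm1, Igtp and Iigp1), against 3.97% of all genes. These 6 were also the genes whose 3 atherosclerosis libraries all lay above the 3 control libraries, against 5.06% of all genes. The count of 6 was 3 when atherosclerosis library 2, whose B cell marker sum was above those of the other 11 libraries, was left out.

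Igtp, a regulatory immunity-related GTPase, was at 45.4, 31.9 and 34.4 CPM in controls and at 64.3, 52.1 and 65.9 in atherosclerosis. The groups did not overlap, and the log2 fold change was 0.71 ± 0.17 (SE). Irgm1, the other regulatory member, was at 60.4, 57.6 and 64.8 CPM in controls and at 76.1, 86.6 and 113 in atherosclerosis. Its lowest atherosclerosis library was again above all controls, and the log2 fold change was 0.59 ± 0.17 (adjusted p = 0.44 in edgeR's quasi-likelihood test).

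Iigp1, an effector GTPase that coats parasite vacuoles, lies at chr18:60376027-60392634 on the plus strand. It was at 12.3, 6.28 and 7.72 CPM in controls and at 29.0, 15.6 and 15.8 in atherosclerosis. Atherosclerosis library 2 stood well above the other 2 of its group, all 3 lay above the controls, and the log2 fold change was 1.21 ± 0.35 (adjusted p = 0.46 in edgeR's quasi-likelihood test). This was the only one of the 10 to be called in atherosclerosis under any of the alternatives tried, with an adjusted p of 0.000245 in edgeR's quasi-likelihood test when genes with at least 1 count were kept. That setting called 432 of 36003 genes. Tgtp1, the other effector, was at 1.63, 0.758 and 1.24 CPM in controls and at 2.00, 1.23 and 0.662 in atherosclerosis. These groups overlapped widely. Its near-identical neighbour Tgtp2 was at 10.5, 9.91 and 11.2 CPM in controls and at 29.1, 19.8 and 17.4 in atherosclerosis, without overlap (log2 fold change 1.07 ± 0.42, adjusted p = 0.76 in edgeR's quasi-likelihood test). In hypertension Tgtp2 was at 18.25, 16.1 and 14.1 CPM, also above all controls, as were 9.02% of all genes. Its hypertension and atherosclerosis libraries overlapped. How reads were divided between the 2 copies was not tested.

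Among the guanylate-binding proteins, Gbp7 was the highest per length. It was at 52.6, 51.8 and 51.4 CPM in controls and at 81.7, 60.8 and 73.9 in atherosclerosis, a log2 fold change of 0.47 ± 0.18. The control libraries were nearly identical, and every atherosclerosis library lay above them. Gbp4 was at 5.27, 5.85 and 5.93 CPM in controls and at 13.2, 6.46 and 8.86 in atherosclerosis (log2 fold change 0.74 ± 0.25). Its atherosclerosis libraries were spread over a wide range, of which the lowest was just above the controls. Gbp6 had the largest log2 fold change of the family, 1.65 ± 0.59, but from levels of 0.224 to 0.465 CPM in controls and 0.587 to 1.56 in atherosclerosis, which rest on 4 to 12 counts per library in controls and 10 to 35 in atherosclerosis.

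The remaining guanylate-binding proteins overlapped between atherosclerosis and controls. Gbp2, which targets pathogen vacuoles, was at 11.8, 10.2 and 10.9 CPM in controls and at 12.1, 11.7 and 14.3 in atherosclerosis (log2 fold change 0.21 ± 0.24). Gbp5, known for promoting assembly of the NLRP3 inflammasome, was at 1.35, 2.22 and 2.83 CPM in controls and at 2.05, 2.06 and 3.00 in atherosclerosis. Gbp3 was at 16, 14 and 13 CPM in controls and at 9.03, 14.6 and 17.6 in atherosclerosis, the only gene of the 10 with a lower mean (log2 fold change -0.06 ± 0.23). Its lowest level of all 12 libraries was in atherosclerosis library 2, in which Gbp4, Gbp6, Gbp7, Iigp1 and Tgtp1 had their highest.

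**Figure D2:**
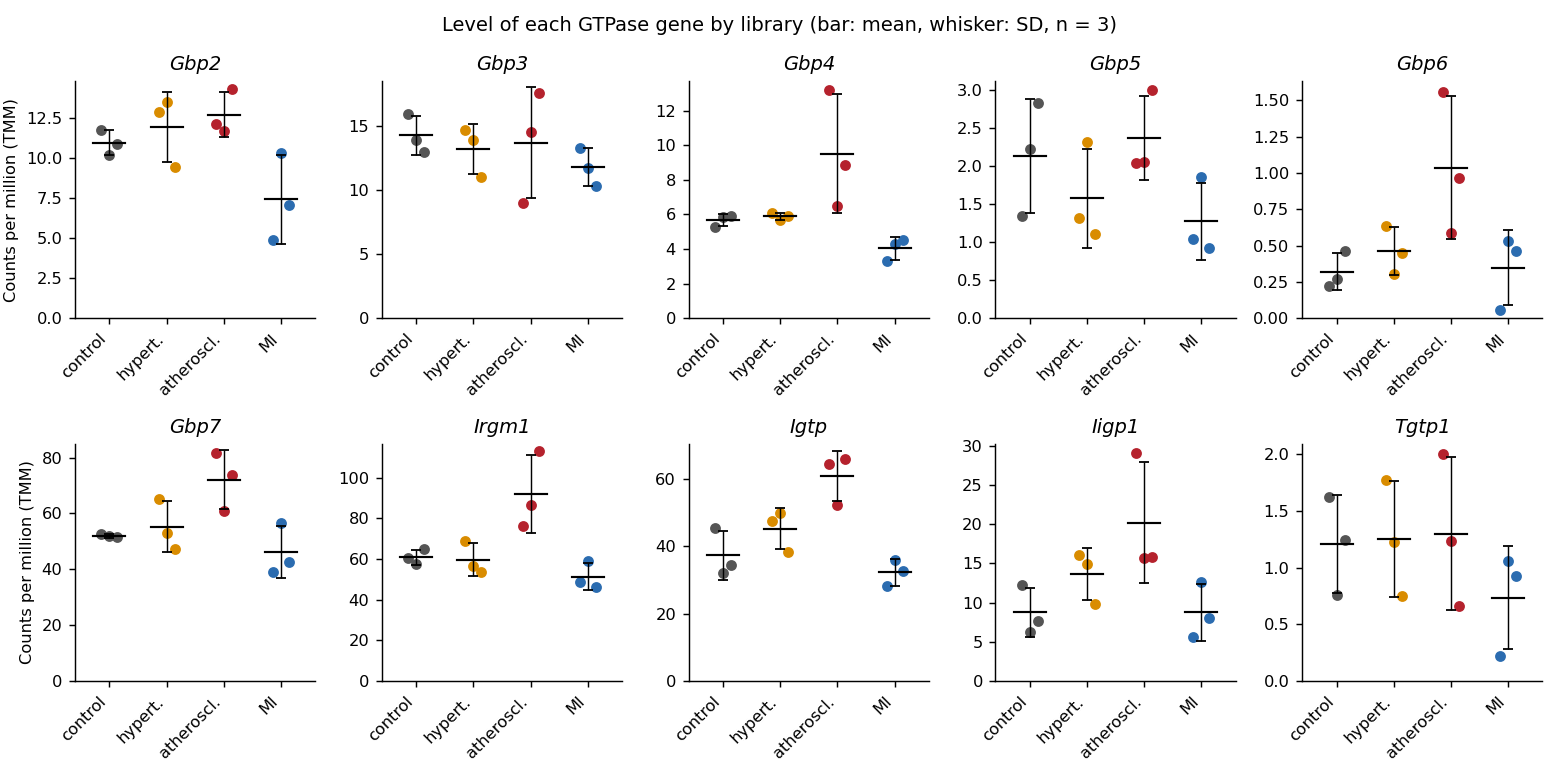
Level of each of the 10 GTPase genes in CPM, scaled by TMM (a normalization that corrects for RNA composition), in the 4 groups; points are libraries, bars means and whiskers the SD of 3. The atherosclerosis libraries of Gbp4, Gbp6, Gbp7, Irgm1, Igtp and Iigp1 all lie above the control libraries, and MI library 2 is among the lowest for most genes.

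In MI 9 of the 10 genes had a lower mean level than controls did. The median of their log2 fold changes was -0.26, where the median over all genes tested was within 0.01 of 0. None was called, as for all genes (0% called in edgeR's quasi-likelihood test, 251 genes lower and 197 higher with an unadjusted p under 0.05; the likelihood-ratio test and DESeq2 each called 1 gene). Gbp2 alone had an unadjusted p under 0.05 and was lower, where 1.57% of all genes were. It was at 4.86, 10.3 and 7.07 CPM after MI, of which only the second reached the range of the controls (log2 fold change -0.56 ± 0.25). The count of 1 became 0 without control library 3, control library 4, MI library 2 or MI library 4, and 2 without MI library 3. Gbp4 alone had 3 MI libraries below all controls, where 4.59% of all genes had, with 3.31, 4.29 and 4.52 CPM (log2 fold change -0.49 ± 0.25). Gbp5 (1.05, 1.85 and 0.927 CPM) and Tgtp1 (0.221, 1.06 and 0.927 CPM) had lower means, with log2 fold changes of -0.74 ± 0.40 and -0.71 ± 0.56, and overlapped the controls.

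The MI libraries differed widely among themselves. The mean log2 level of the 10 genes, set against the control mean, was -0.80 in MI library 2, 0.02 in library 3 and -0.32 in library 4, where the control libraries lay between -0.14 and 0.08. Gbp7 was at 39.0, 56.7 and 42.7 CPM after MI, Irgm1 at 48.9, 59.0 and 46.2, and Igtp at 28.1, 35.9 and 32.7. In each of these library 3 was the highest. Iigp1 was at 5.58, 12.6 and 7.99 CPM, with nearly the same mean as in controls, and Gbp6 at 0.0552, 0.529 and 0.463 CPM, the first of which was a single count. Gbp3 overlapped the controls, with 13.3, 11.7 and 10.4 CPM.

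In hypertension the 10 genes as a set were close to the controls. The median log2 fold change was 0.07 (all genes -0.01), 7 of the 10 genes had a higher mean, none was called (0% of all genes in edgeR's quasi-likelihood test, with 333 genes higher and 261 lower at an unadjusted p under 0.05, and 0 by the likelihood-ratio test), none had an unadjusted p under 0.05, and none had its hypertension libraries all above the controls, where 9.02% of all genes had. The count with an unadjusted p under 0.05 became 2 without control library 2 and 1 without hypertension library 4. The largest difference among genes above 5 CPM was that of Iigp1, at 16.1, 15 and 9.81 CPM (log2 fold change 0.64 ± 0.35). Igtp was at 47.5, 49.7 and 38.4 CPM (0.28 ± 0.17), Irgm1 at 69.0, 56.8 and 53.6 (-0.03 ± 0.17) and Gbp7 at 65.3, 53.1 and 47.4 (0.09 ± 0.18, all log2 fold changes). Gbp4 was nearly level with controls at 6.08, 5.69 and 5.91 CPM. Gbp2 (12.9, 13.5 and 9.46), Gbp3 (14.8, 13.9 and 11.0), Gbp5 (1.32, 2.32 and 1.10), Gbp6 (0.636, 0.307 and 0.451) and Tgtp1 (1.77, 1.23 and 0.751 CPM) all overlapped the controls. In 8 of the 10 genes hypertension library 4 was the lowest of its group.

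**Figure D3:**
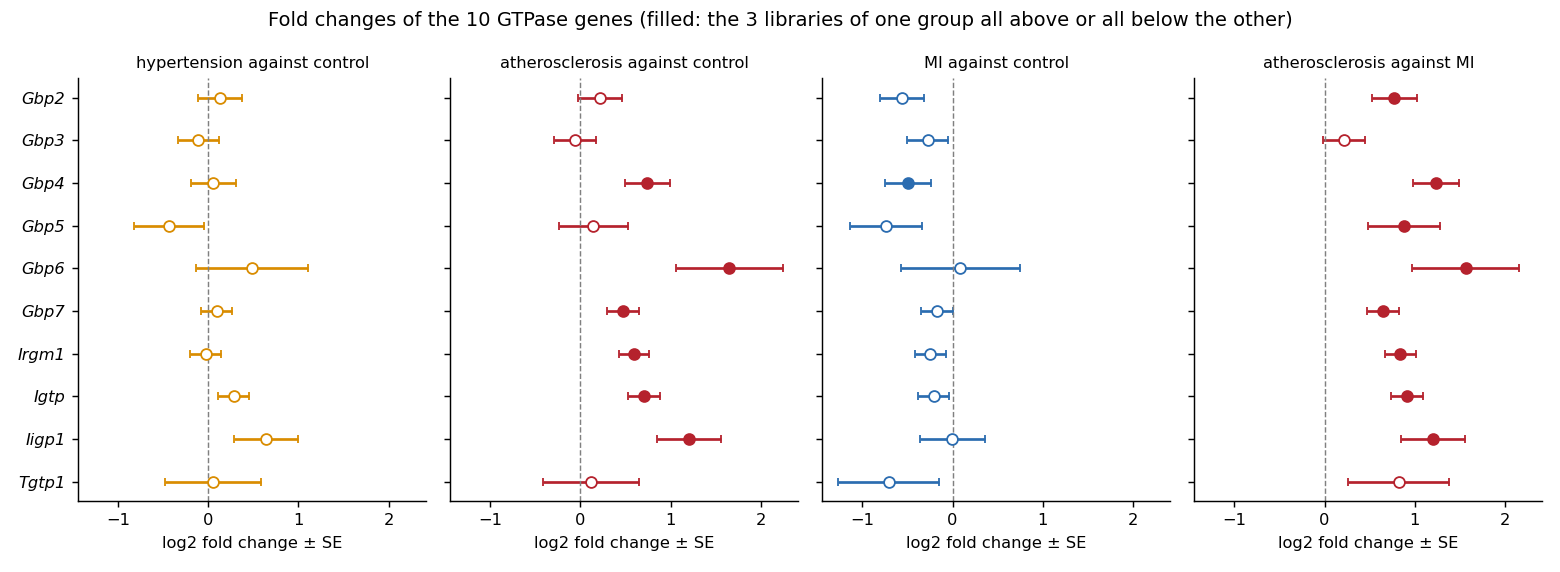
Log2 fold change with its standard error for each of the 10 GTPase genes in hypertension, atherosclerosis and MI against control and in atherosclerosis against MI. Filled points mark genes whose 3 libraries of one group all lie above or below the 3 of the other, 0 in hypertension, 6 in atherosclerosis, 1 in MI and 8 in atherosclerosis against MI.

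Direct comparisons between diseases test whether their levels differ. All 10 genes were higher in atherosclerosis than after MI, with a median log2 fold change of 0.86 (all genes 0.02). For 8 of them (all but Gbp3 and Tgtp1) the unadjusted p was under 0.05, against 7.36% of all genes, and the same 8 did not overlap between the groups, against 7.44%. None passed the adjusted threshold in edgeR's quasi-likelihood test, which called 0.269% of all genes. The 3 smallest p-values were close to it. Igtp differed by a log2 fold change of 0.91 ± 0.18 (adjusted p = 0.0524), Irgm1 by 0.84 ± 0.17 (adjusted p = 0.0624) and Gbp4 by 1.24 ± 0.25 (adjusted p = 0.0628). The likelihood-ratio test called these 3 and no other of the 10, where it called 1.23% of all genes as higher, and DESeq2 called the 3 together with Iigp1. In edgeR's quasi-likelihood test Irgm1 was called without atherosclerosis library 2 (adjusted p = 0.0249) and Gbp4 without atherosclerosis library 3 (adjusted p = 0.0377). Gbp6 (1.57 ± 0.60), Iigp1 (1.21 ± 0.35), Gbp5 (0.89 ± 0.40), Gbp2 (0.77 ± 0.25) and Gbp7 (0.65 ± 0.18) also differed without overlap, as log2 fold changes. The count of 8 with an unadjusted p under 0.05 was 6 without MI library 2.

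All 10 genes were likewise higher in atherosclerosis than in hypertension on average, with a median log2 fold change of 0.50 and no call in edgeR's quasi-likelihood test (0.0625% of all genes). The unadjusted p was under 0.05 for 4 genes (3.86% of all genes), and 3 genes did not overlap (5.81% of all genes). These 3 were Gbp4 (log2 fold change 0.69 ± 0.25), Irgm1 (0.62 ± 0.17) and Igtp (0.43 ± 0.17), and the fourth was Gbp7 (0.38 ± 0.18). The count of 4 was 1 without atherosclerosis library 2 and 2 without atherosclerosis library 4 or hypertension library 4. All 10 were lower after MI than in hypertension (median log2 fold change -0.44, none of the genes called among 0% of all genes, 2 with an unadjusted p under 0.05 against 4.23% of all genes). That count of 2 was 0 without MI library 2 or hypertension library 3, 3 without hypertension library 4 and 4 without MI library 3. Gbp4 and Igtp did not overlap there, where 10.2% of all genes were lower without overlap. In any single comparison of 3 libraries with 3, the exact two-sided permutation test cannot give a p below 0.1, which is the value of every gene without overlap. Comparisons that share a group are not independent of each other.

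The 10 genes were compared with each other over the 12 libraries. Each gene's log2 level was set against the mean of the other 9. Pearson's r was 0.95 for Gbp7, 0.89 for Igtp, 0.87 for Gbp2, 0.85 for Gbp4 and 0.84 for Iigp1. It was lower for Gbp6 (0.79), Irgm1 (0.78), Tgtp1 (0.62) and Gbp5 (0.55), and 0.03 for Gbp3. With group means removed, r was 0.87 for Gbp7, 0.88 for Gbp2, 0.78 for Iigp1, 0.71 for Igtp, 0.67 for Tgtp1 and 0.66 for Gbp6. It was lower for Gbp4 (0.50), Irgm1 (0.35) and Gbp5 (0.25), and -0.25 for Gbp3. These values describe libraries that share the group structure and the sorted mixture, and are given without a test. The 8 other tested genes most like the mean of the family over the 12 libraries were Ell2 (r = 0.95), Irf7 (0.94), Herc6 (0.93), Itga9 (0.93), Ifit1 (0.93), Tmem132e (0.92), Atp8a1 (0.91) and Abcg3 (0.91). Irf7, Herc6 and Ifit1 are known interferon-induced genes.

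Other GBP and GTPase genes, not all of which lie in the same clusters, were described in the same way. Of the 5 other GBP genes, Gbp8 and Gbp9 had enough counts to be tested, and both had higher means in atherosclerosis (log2 fold changes 0.42 ± 0.30 and 0.22 ± 0.21) and lower means after MI. Of 14 other immunity-related and very large GTPase genes 13 were tested, with 11 higher in atherosclerosis, where 51.95% of all genes were. Their median log2 fold change was 0.42. None was called in edgeR's quasi-likelihood test in any comparison. The likelihood-ratio test called 1, Gm5431, as higher in atherosclerosis than after MI, where it called 1.23% of all genes as higher. In atherosclerosis against control, the genes besides Tgtp2 with an unadjusted p under 0.05 were Gm4951, a neighbour of Iigp1 (1.14 ± 0.40), and Irgc1 (1.29 ± 0.43). Irgc1 lies at chr7:24431922-24452297, on the chromosome that also carries Apoe. Whether its level is tied to the knockout allele was not tested. Ifi47, the most abundant per length, had 61.6 to 87.3 CPM in controls and 85.0 to 98.1 in atherosclerosis (0.33 ± 0.18).

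Interferon-gamma itself, the ligand that induces the family, had a low level, which was below the smallest measurable amount of 3 counts in MI library 2. Ifng was at 1.07, 0.812 and 0.659 CPM in controls and at 0.934, 0.881 and 1.32 in atherosclerosis, overlapping (log2 fold change 0.32 ± 0.44). It was at 0.110, 0.318 and 0.463 CPM after MI, below all controls, with a log2 fold change of -1.48 ± 0.50 that was not called (adjusted p = 1 in edgeR's quasi-likelihood test). These values rest on 2 to 26 counts per library. The 6 other interferon genes on the list (Ifnb1, Ifna2, Ifna4, Ifne, Ifnl2 and Ifnl3) had no count in any library. Of the 12 ligands and inducing cytokines, 5 were tested and none was called in any comparison in edgeR's quasi-likelihood test. Il12b, named after its values were seen, had too few counts to be among those 5. It had 17, 8 and 17 counts in atherosclerosis, 0, 1 and 0 in controls, 3, 1 and 2 in hypertension and 2, 8 and 0 after MI. The likelihood-ratio test called 1 of the 5 tested, Ifng, as higher in atherosclerosis than after MI (adjusted p = 0.0297). In atherosclerosis against control Il18 was at a log2 fold change of 0.38 ± 0.23 and Il27 at -0.40 ± 0.35.

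The receptors and signalling genes were well measured, and none of the 17 was called in any comparison in edgeR's quasi-likelihood test. The likelihood-ratio test called 1 of them, Irf9, as higher in atherosclerosis than after MI. Their median log2 fold change in atherosclerosis was 0.13. Irf9, a transcription factor of the type I interferon response, had the largest difference by p, with 70.5, 83.5 and 83.9 CPM in controls and 137, 101 and 152 in atherosclerosis (log2 fold change 0.71 ± 0.21, adjusted p = 0.47 in edgeR's quasi-likelihood test). Stat2 followed with 0.38 ± 0.15 and Usp18, a brake on type I interferon signalling, with 0.88 ± 0.45. The last of these rested on libraries 3 and 4 of the group, at 84.6 and 101 CPM. Library 2 of atherosclerosis was at 33.2 CPM, below all controls (35.6 to 44.6 CPM).

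Other genes that interferon-gamma induces had a median closer to 0. Of 21, 19 were tested, 13 had a higher mean in atherosclerosis and their median log2 fold change was 0.07. Cd274, which encodes the checkpoint ligand PD-L1, was called. It was at 5.33, 5.90 and 5.51 CPM in controls and at 18.9, 11.3 and 12.9 in atherosclerosis, all above the controls, with a log2 fold change of 1.37 ± 0.24 (adjusted p = 0.0472 in edgeR's quasi-likelihood test). That call was lost whichever single library of the 6 was left out, with adjusted p between 0.0671 and 0.239 in edgeR's quasi-likelihood test. It was also lost with a replicate block (adjusted p = 0.12) and with only the 2 groups in the fit (adjusted p = 0.264). Nlrc5, the activator of MHC class I genes (0.68 ± 0.19), and B2m, the MHC class I light chain (0.53 ± 0.17), were higher without overlap but not called.

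The type I interferon effectors, which make antiviral proteins, were higher on average in atherosclerosis. All 15 were tested, 14 had a higher mean in atherosclerosis and the median log2 fold change was 1.12, with 11 higher at an unadjusted p under 0.05, against 3.97% of all genes. None was called against controls in edgeR's quasi-likelihood test, and the likelihood-ratio test, which called 0.388% of all genes as higher, called 4 (Oas1a, Oas2, Rsad2 and Oas3, the last of which is named after its values were seen). Rsad2, which encodes the antiviral enzyme viperin, was at 177, 117 and 173 CPM in controls and at 283, 404 and 368 in atherosclerosis (log2 fold change 1.18 ± 0.22, adjusted p = 0.0672 in edgeR's quasi-likelihood test). Oas2 (2.04 ± 0.43) and Oas1a (1.12 ± 0.27), which sense double-stranded RNA, also did not overlap with controls. Against MI, Oas1a, Rsad2 and Ifi44 were called as higher in atherosclerosis, and Oas1a was also called against hypertension. Leaving out single libraries ended each of the calls of Oas1a and Rsad2 in 5 of 6 cases and that of Ifi44 in 4 of 6. After MI the median of the list was -0.42 against controls, with MI library 2 again the lowest for Oas1a, at 6.29 CPM against 11.9 to 14.2 in controls.

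Proteins that work with these GTPases had fold changes near 0. The list of inflammasome components and autophagy genes, which load GBPs and immunity-related GTPases onto vacuoles or respond once these open, had 21 genes, all tested and none called in any comparison by the quasi-likelihood or the likelihood-ratio test. In atherosclerosis 9 had a higher and 12 a lower mean, none had an unadjusted p under 0.05, and the median log2 fold change was -0.08, with a range from -0.31 to 0.30. Atg5, part of the conjugation machinery that directs the GTPases (-0.28 ± 0.14), Gabarapl1 (0.30 ± 0.16) and Casp1 (-0.25 ± 0.14) had the smallest p.

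**Figure D4:**
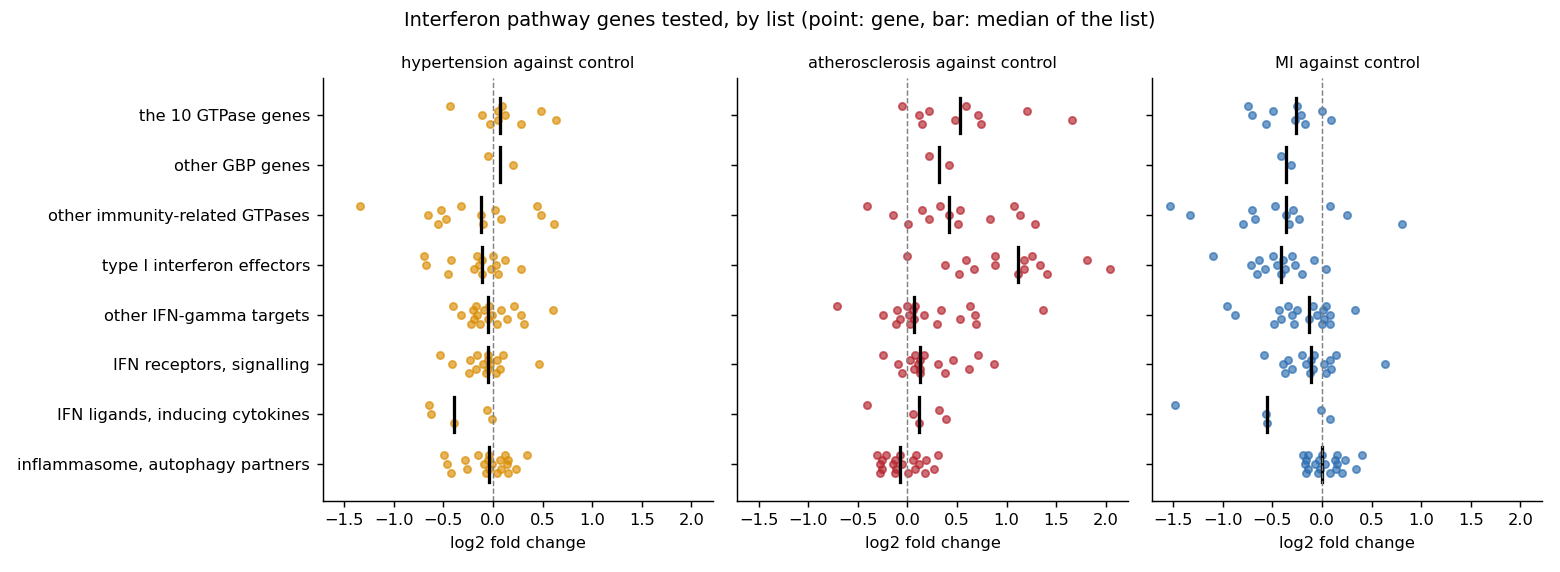
Log2 fold change against control of every tested gene of 8 lists of the interferon pathway, in hypertension, atherosclerosis and MI; points are genes and bars list medians. In atherosclerosis the medians were 0.53 for the 10 GTPase genes, 1.12 for type I interferon effectors, 0.07 for other interferon-gamma targets and -0.08 for inflammasome and autophagy partners.

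Markers of some other cells differed between the same groups. The 9 macrophage markers summed to 865 to 937 CPM in controls and to 1152.5 to 1385 in atherosclerosis. All 9 had a positive log2 fold change there, but the smallest was 0.00045, which is practically no difference. Cd5l (log2 fold change 2.22 ± 0.32, adjusted p = 0.0191) and C1qa (0.97 ± 0.16, adjusted p = 0.0341) were called in edgeR's quasi-likelihood test. The call of C1qa was lost without any 1 of the 3 controls or of atherosclerosis libraries 3 and 4, and that of Cd5l without control 2, control 3 or atherosclerosis library 3. Both were also lost with a replicate block (adjusted p = 0.0633 for C1qa and 0.0546 for Cd5l in edgeR's quasi-likelihood test) and with only the 2 groups in the fit (0.244 and 0.076). The 7 markers of plasmacytoid dendritic cells, which are known for making type I interferon, summed to 261 to 307 CPM in controls, 353 to 369 in atherosclerosis and 150 to 242 after MI, with 6 of 7 higher in atherosclerosis, 7 of 7 lower after MI and none at 0. The 6 B cell markers all had lower means after MI, summing to 184 to 396 CPM against 403 to 562 in controls. In atherosclerosis they summed to 1106 CPM in library 2 and to 439 and 398 in libraries 3 and 4. That library 2, which had the highest Gbp4, Gbp6, Gbp7 and Iigp1 of its group, also had the lowest neutrophil sum (33330 CPM) and the lowest erythroid sum (9675 CPM) of all 12 libraries. Endothelial markers summed to 187 to 272 CPM in atherosclerosis and 144 to 237 in controls, overlapping. All 10 neutrophil markers had lower means in atherosclerosis and 9 of 10 higher means after MI, with sums that overlapped controls in both. In hypertension all 10 had lower means, and their sums of 36421 to 53513 CPM lay below those of all controls (57603 to 79957 CPM). Of the plasmacytoid dendritic cell markers 6 of 7 had lower means in hypertension, with sums of 244 to 271 CPM that overlapped controls. The macrophage markers had higher means there in 7 of 9, with sums of 804 to 1174 CPM that overlapped controls. In atherosclerosis 6 of 7 monocyte markers and 6 of 8 T and NK cell markers had lower means, and all 8 erythroid markers had higher means. The sums of each of these lists overlapped controls. After MI all 8 T and NK cell markers had lower means, also with overlapping sums. The part of these cells in the levels of the GTPase genes was not tested.

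**Figure D5:**
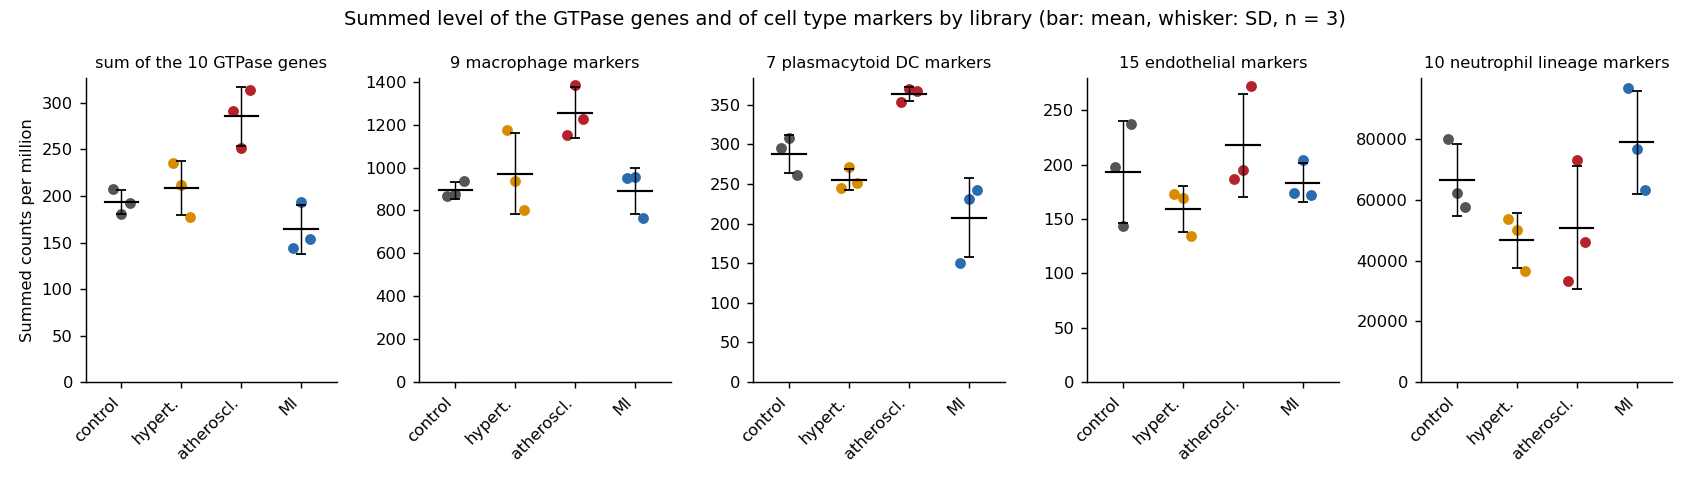
Sum of the 10 GTPase genes and of the markers of macrophages, plasmacytoid dendritic cells (DC), endothelial cells and the neutrophil lineage in each library, in CPM; bars are means and whiskers the SD of 3. The GTPase genes, the macrophage markers and the plasmacytoid dendritic cell markers are above all controls in the 3 atherosclerosis libraries, while the endothelial markers overlap.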

How the data were processed

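Bone marrow endothelial cells of 12 mice had been sorted, and polyadenylated RNA was made into directional libraries. The authors aligned single-end reads to GRCm38 with STAR 2.7.3a, and deposited unnormalized read counts for each Ensembl gene in 1 table. STAR can count either strand or both, and which was taken is not given in the sources used here. All 12 columns were matched to samples by group and number in the labels. Counts of the 15999 genes kept by edgeR's filter were scaled by TMM and tested with edgeR 4.0.16 (quasi-likelihood, 1 coefficient per group over 12 libraries, 8 residual degrees of freedom), with Benjamini-Hochberg adjustment over all genes tested and a threshold of 0.05. Exact permutation tests were two-sided. The study's own test, edgeR's likelihood-ratio test, was an alternative, as were DESeq2 1.42.0, RLE scaling, other filters, fewer groups, a replicate block, genes of blood composition left out and each library left out. Positions came from GENCODE M21, which may differ in gene models from the annotation used for counting. The fit was checked on simulated counts, in atherosclerosis against control. In the simulation every gene had the same variability, unlike real genes, and only genes above 1 CPM on average were raised. Of 100 genes raised by a log2 fold change of 1 the fit called 38, and of 100 raised by 2 it called 100. These shares need not hold for the real genes. The lack of a call is therefore no sign that a gene did not change. The GTPase genes and the lists were chosen with earlier results of these data known. All 10 GTPase genes are named. From other lists, genes called in any comparison and the 3 with the smallest p in atherosclerosis against control are named, and GTPase genes of other lists may be. Fold changes of the GTPase genes between disease groups, counts at unadjusted p, and called genes of other lists were put through the alternatives by a decision made after seeing the data. Total counts of 17007088 to 25136936 per library limit the precision of genes near 1 CPM.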

Additional observations from a re-analysis of the deposited data

Results flagged for a closer look

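Results are given here because the direct comparison of 2 disease groups passed the adjusted threshold in edgeR's quasi-likelihood test, so that the effects of those diseases against the shared controls differ. No gene of the 10 met this. Cd274 was higher in atherosclerosis than after MI by a log2 fold change of 1.67 ± 0.24 (SE, adjusted p = 0.0124, 3 of 3 atherosclerosis libraries above all MI libraries). Oas1a exceeded its hypertension level in atherosclerosis by 1.79 ± 0.27 (adjusted p = 0.0265) and its MI level by 1.58 ± 0.27 (adjusted p = 0.0345). Rsad2 (1.26 ± 0.22, adjusted p = 0.0375) and Ifi44 (2.92 ± 0.52, adjusted p = 0.0401) were higher in atherosclerosis than after MI. C1qa, a macrophage marker, was also higher there, by 0.94 ± 0.16 (adjusted p = 0.0345). All are log2 fold changes from 3 libraries a group. Over the alternatives tried, adjusted p ran up to 0.198 for Cd274, to 0.212 for Oas1a against hypertension, to 0.249 for Oas1a, Rsad2 and Ifi44 against MI and to 0.242 for C1qa. The call of Cd274 was lost without MI library 2 or 4. Those of Oas1a, Rsad2 and C1qa against MI were lost without any single library of the 6 except atherosclerosis library 2, that of Ifi44 without either of atherosclerosis libraries 3 and 4 or MI libraries 2 and 4, and that of Oas1a against hypertension without any single library except atherosclerosis library 2. All 6 calls were lost with only the 2 groups in the fit, and all but that of Cd274 with a replicate block. Groups of 3 libraries are too small for a test for outlying libraries.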

How the results depend on the processing

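The median fold change of the 10 genes moved by less than the spread between libraries under every alternative. Leaving out 1 library at a time gave medians (log2) of 0.41 to 0.61 in atherosclerosis against control, -0.36 to -0.21 in MI, -0.01 to 0.23 in hypertension, 0.34 to 0.59 in atherosclerosis against hypertension, 0.76 to 1.14 in atherosclerosis against MI and -0.63 to -0.30 in MI against hypertension. Correlations of the deviations of libraries that share a replicate number (2, 3 or 4) were -0.28 to 0.30, and those of others -0.30 to 0.39. With 3 libraries a group these values cannot decide whether the numbers pair the samples. The replicate block left the count of called GTPase genes at 0 in every comparison and gave 7 genes overall in atherosclerosis against control and 22 in atherosclerosis against MI. 

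GTPase genes called in atherosclerosis against MI numbered 3 by likelihood-ratio test, 4 by DESeq2, 4 with no filter beyond 1 count, 1 with at least 10 counts in every library, 1 with immunoglobulin and hemoglobin genes left out, and 0 to 1 leaving out 1 library. Against control in atherosclerosis 1 was called with no filter beyond 1 count. Over all genes, 23 calls in atherosclerosis against control became 81 by likelihood-ratio test, 81 by DESeq2, 432 with no filter, 4 with only the 2 groups, and 2 to 34 without 1 library (3 without control library 2, 2 without control library 3, 11 without control library 4, 6 without atherosclerosis library 3). In atherosclerosis against hypertension 10 became 70, 76 and 235 (likelihood-ratio test, DESeq2, no filter) and 3 to 36 without 1 library (36 without atherosclerosis library 2). In atherosclerosis against MI 43 became 274, 301, 790, 3 with only the 2 groups, 66 without immunoglobulin and hemoglobin genes, and 8 to 93 without 1 library (93 without atherosclerosis library 2, 9 and 8 without MI libraries 2 and 4). With no call in the main test, no filter gave 170 in hypertension, 130 in MI and 422 in MI against hypertension. The likelihood-ratio test gave 1 in MI and 2 in MI against hypertension, DESeq2 1 and 22, and only the 2 groups 1 in MI. The cause was not tested.

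Among the alternatives tried, every change of sign of a GTPase gene was in a fold change within 1 standard error of 0. Iigp1 in MI against control was 0.0003 under RLE, 0.002 with only the 2 groups, 0.0024 with immunoglobulin and hemoglobin genes left out, 0.0069 with at least 10 counts in every library and 0.0476 with the replicate block, and -0.37 to 0.32 without 1 library. Without 1 library, in hypertension against control, ranges were -0.20 to 0.0072 for Gbp3, -0.0004 to 0.092 for Gbp4, -0.0466 to 0.19 for Gbp7, -0.14 to 0.0489 for Irgm1 and -0.28 to 0.31 for Tgtp1. In atherosclerosis against control they were -0.28 to 0.18 for Gbp3, -0.10 to 0.42 for Gbp5 and -0.35 to 0.42 for Tgtp1. In MI against control Gbp6 ran from -0.35 to 0.59. In atherosclerosis against hypertension Gbp2 ran from -0.0537 to 0.18, Gbp3 from -0.17 to 0.29 and Tgtp1 from -0.41 to 0.39. In atherosclerosis against MI Gbp3 ran from -0.0075 to 0.46. In MI against hypertension Gbp5 ran from -0.68 to 0.0788 and Gbp6 from -0.84 to 0.10.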
